A study of Mus musculus with 30 samples.

Results

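The 10 genes described here were followed through 30 bulk RNA-seq libraries of the mouse descending thoracic aorta: 7 that mark or regulate brown fat (Ucp1, Cidea, Elovl3, Dio2, Prdm16, Ppargc1a and Ppargc1b) and 3 that white and brown adipocytes share (Adipoq, Plin1 and Pnpla2). They were taken by symbol from the 26253 genes listed, and all 10 passed the expression filter in each of 11 comparisons. All mice were males on a C57BL/6J background, and VEDS mice were heterozygous for a Col3a1 missense allele that models vascular Ehlers-Danlos syndrome, whereas controls carried the wild-type gene. The groups were VEDS mice given hydralazine with spironolactone (HS, n = 3), VEDS mice given hydralazine with bicalutamide (HB, n = 3), hydralazine-treated VEDS mice (n = 6) and controls (n = 6), and untreated VEDS mice (n = 6) and controls (n = 6). Hydralazine, a vasodilator, was given at 32 mg/kg/day in drinking water from birth. Bicalutamide (50 mg/kg/day), an androgen receptor antagonist, or spironolactone (100 mg/kg/day), which blocks the mineralocorticoid and androgen receptors, was added in chow from day 21. HB and HS aortas were collected at day 60, whereas the other groups hold aortas of day 30 or day 60 with no age given for a library, so in comparisons of HB or HS with the other 4 groups the added drug and the age mix cannot be told apart.

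Brown adipocytes burn lipid for heat: uncoupling protein 1 (UCP1) lets protons return across the inner mitochondrial membrane without making ATP. The fat around the rodent thoracic aorta resembles brown fat, and the aortas were cleaned of it before RNA extraction. Transcriptional coactivators of the PGC-1 family (Ppargc1a, Ppargc1b) and the regulator PRDM16 govern mitochondrial and brown fat genes, while adiponectin (Adipoq), the lipid droplet coat perilipin 1 (Plin1) and the triglyceride lipase ATGL (Pnpla2) serve fat cells of every kind. Prdm16 is not confined to fat: the study also counts it among transcripts of contractile, differentiated smooth muscle cells. Because whole tissue was sequenced, fewer fat cells and less of a transcript per fat cell cannot be told apart.

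Promoter windows of 4 members are shown because these genes fall on either side of the main pattern described below: Ucp1 and Plin1 varied together across libraries, whereas Dio2 and Prdm16 had correlations with Ucp1 below 0 over the 30 libraries. Each window runs from 250 bases before to 50 bases after the annotated start (RefSeq, GRCm38.p6): Ucp1 at chr8:83290098-83290397 (plus strand), Plin1 at chr7:79732727-79733026 (minus strand), Dio2 at chr12:90738989-90739288 (minus strand) and Prdm16 at chr4:154636824-154637123 (minus strand). The expression files use mm39, so these positions serve only to identify the windows. Capitals mark matches, on either strand, to AGGTCA (a nuclear receptor half-site), TGACGTCA (a cAMP response element), CCAAT or TATAAA.
Ucp1: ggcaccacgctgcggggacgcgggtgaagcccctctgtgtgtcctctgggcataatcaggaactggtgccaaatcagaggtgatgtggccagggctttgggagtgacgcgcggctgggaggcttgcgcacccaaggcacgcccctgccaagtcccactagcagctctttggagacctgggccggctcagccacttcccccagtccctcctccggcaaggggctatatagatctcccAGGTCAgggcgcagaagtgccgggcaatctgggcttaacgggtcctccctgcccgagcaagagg
Plin1: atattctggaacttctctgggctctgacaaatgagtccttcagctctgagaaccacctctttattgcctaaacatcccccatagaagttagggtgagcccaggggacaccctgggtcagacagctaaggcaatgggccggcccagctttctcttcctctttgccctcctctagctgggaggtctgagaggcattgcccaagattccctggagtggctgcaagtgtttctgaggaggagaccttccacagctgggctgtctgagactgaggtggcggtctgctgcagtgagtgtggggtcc
Dio2: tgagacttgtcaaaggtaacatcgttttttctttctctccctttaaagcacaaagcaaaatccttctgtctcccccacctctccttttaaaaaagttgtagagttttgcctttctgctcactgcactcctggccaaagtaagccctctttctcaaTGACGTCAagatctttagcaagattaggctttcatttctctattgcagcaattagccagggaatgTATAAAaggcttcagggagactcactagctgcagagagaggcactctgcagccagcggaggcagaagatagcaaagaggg
Prdm16: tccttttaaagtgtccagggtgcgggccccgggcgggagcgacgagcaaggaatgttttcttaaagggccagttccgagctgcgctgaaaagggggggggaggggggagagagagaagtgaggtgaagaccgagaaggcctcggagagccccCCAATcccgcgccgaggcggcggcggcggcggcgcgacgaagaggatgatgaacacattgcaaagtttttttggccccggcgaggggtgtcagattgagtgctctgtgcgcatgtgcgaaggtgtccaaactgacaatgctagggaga
Ucp1 held AGGTCA once, a motif found in 16.2% of 32544 promoters. Dio2 held TGACGTCA (1.8% of promoters) and TATAAA (13.6%), Prdm16 held CCAAT (37.4%), and Plin1 held none of these letters in this window. Windows were found for 7 of the 10 members, and those of Ppargc1a and Pnpla2 had no match while Adipoq held CCAAT 3 times. These matches describe letters only.

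Markers of the aortic wall were strong throughout, as the tissue label gives: the 6 smooth muscle markers summed to between 15290 and 28960 CPM (counts scaled to library size) per library. Library totals ran from 5517510 to 8293289 counts. The 6 cardiomyocyte markers were high in a pair of libraries, VEDS HB replicate 2 (a sum of 661.8 CPM) and replicate 5 of the hydralazine-treated controls (704.9 CPM), against 4.11 to 81.2 CPM elsewhere. VEDS HS replicate 3 had the lowest scaling factor (0.932). These 3 libraries stood apart in earlier work with these data, and values that moved by over 1.5 times without them are given beside the results.

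Per unit of transcript length, Ucp1 was the most abundant member, with a median of 98.1 TPM (length-scaled transcript abundance) over the 30 libraries and a range of 9.76 to 459.0 TPM. Cidea, a lipid droplet protein that enlarges droplets in fat cells, followed with a median of 44.8 TPM, and the adipokine gene Adipoq with 29.4 TPM. Median levels were 16.5 TPM for Pnpla2, 15.5 TPM for Plin1 and 11.3 TPM for Dio2, the deiodinase that activates thyroid hormone. Prdm16 (5.98 TPM), the fatty acid elongase gene Elovl3 (4.95 TPM), Ppargc1b (1.56 TPM) and Ppargc1a (1.18 TPM) were the lowest. The members therefore spanned abundant effectors and scarce regulators, and the ranges of neighbours in this order overlapped.

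The width of these ranges separated the members. From the lowest to the highest library, Ucp1 differed 47.0-fold in TPM and Cidea 9.64-fold, against 2.58-fold for Dio2 and 2.44-fold for Prdm16. Among the general adipocyte genes the range was 8.68-fold for Plin1, 6.01-fold for Adipoq and 3.99-fold for Pnpla2. Elovl3 ranged from 0.266 CPM, which rested on 2 counts in VEDS HS replicate 3, to 52.3 CPM. Ucp1 was thus detected at 171 counts or more in every library, while the lowest Elovl3 values were close to the limit of counting.

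**Figure D1:**
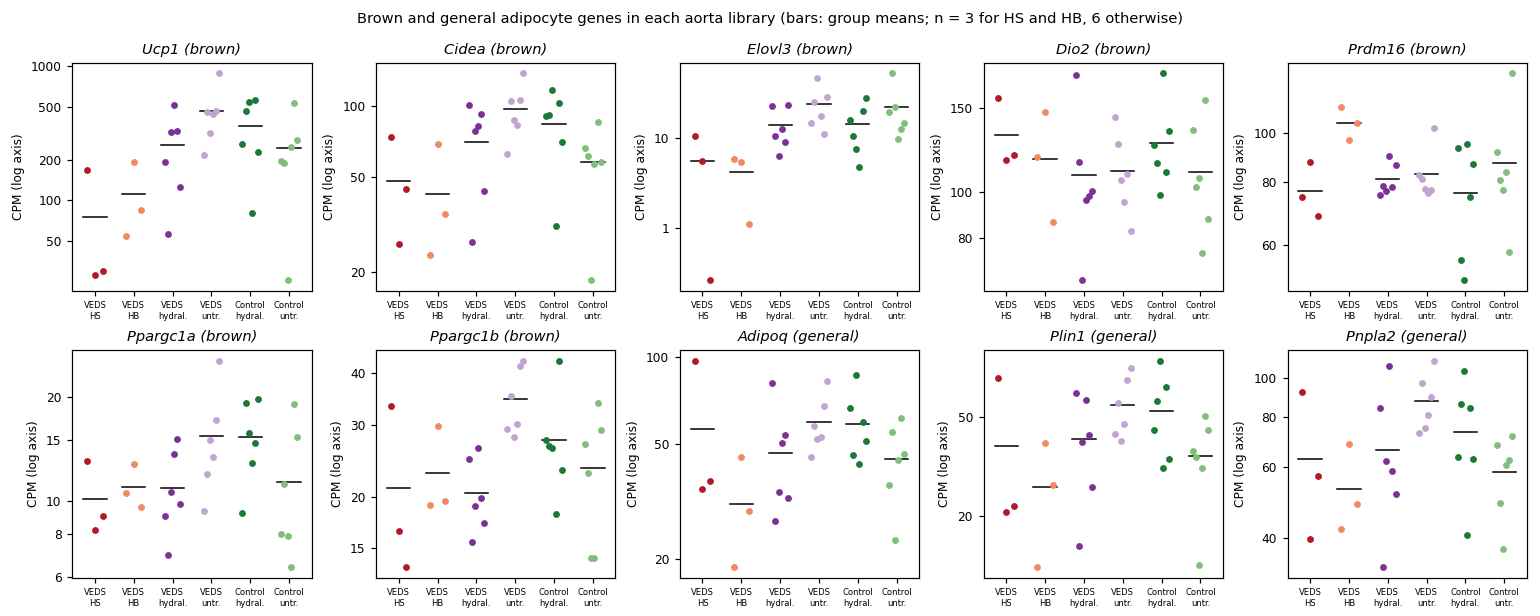
Each point is 1 library and each bar a group mean, in CPM on a log axis, for the 7 brown and 3 general members in 6 groups (n = 3 for HS and HB, 6 otherwise). Ucp1 sits between 27.58 and 193.5 CPM in the HS and HB libraries and between 219.4 and 885.4 CPM in untreated VEDS libraries, while Dio2 overlaps across all groups.

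Ucp1 read 167.6, 27.6 and 29.7 CPM in the 3 HS libraries and 54.3, 193.5 and 84.7 CPM in the 3 HB libraries. In hydralazine-treated aortas the lowest, median and highest values were 56.3, 259.8 and 511.1 CPM in VEDS mice and 81.0, 365.6 and 560.2 CPM in controls. In untreated aortas they were 219.4, 446.3 and 885.4 CPM in VEDS mice and 25.3, 221.8 and 532.4 CPM in controls. All 6 HS and HB values lay below the lowest untreated VEDS value, while every other pair of groups overlapped. The share of all genes whose groups do not overlap was not counted, for this or any comparison below. By mean level the order was untreated VEDS (463.4 ± 227.7 CPM, SD, n = 6), hydralazine-treated control (357.2 ± 193.7, n = 6), hydralazine-treated VEDS (257.4 ± 165.0, n = 6), untreated control (246.0 ± 166.0, n = 6), HB (110.8 ± 73.2, n = 3) and HS (74.9 ± 80.2, n = 3), and neighbours in this order differed by less than their spread.

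Most adipocyte members followed Ucp1 from library to library, on either side of the brown and general division. Over 30 libraries the Pearson correlation of log2(CPM + 0.5) with Ucp1 was 0.913 for Cidea and 0.867 for Plin1 (Spearman 0.868 and 0.822), each with a permutation p of 1e-05 for r, the smallest that 100000 permutations can give, and 2.25e-05 adjusted over the 9 relations tested. Pnpla2 (r = 0.82, rho = 0.769) and Ppargc1b (r = 0.776, rho = 0.693) followed, with the same adjusted permutation p of 2.25e-05 for r. Adipoq gave r = 0.693 and rho = 0.665, and Ppargc1a r = 0.67 and rho = 0.711, both with an adjusted permutation p of 6e-05 for r. These correlations describe variation that the genes share across libraries, and the part of cell composition or scaling in it was not tested. The permutations took no account of group or age. Markers of other cells also varied with Ucp1: the median r was -0.513 for the 6 smooth muscle markers, 0.504 for the 5 fibroblast markers, 0.463 for the 5 hepatocyte markers and 0.445 for 3 mesothelial markers, against -0.0257 over all genes, and their part in the relation was not tested.

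Over all 30 libraries Dio2 and Prdm16 did not pass the test of this relation, with r = -0.203 and r = -0.218 (rho = -0.307 and -0.285, permutation p for r adjusted to 0.28 for both). Within single groups of 6 libraries their r differed widely, given here with no test: Dio2 had -0.364 in hydralazine-treated VEDS aortas, -0.976 in hydralazine-treated controls, -0.822 in untreated VEDS aortas and 0.153 in untreated controls. Prdm16 had 0.227, -0.745, 0.649 and -0.0225 in the same 4 groups. Elovl3 was intermediate at r = 0.459 and rho = 0.298, with adjusted permutation p of 0.0141 for r and 0.124 for rho. After each group was centred on its own mean, Cidea (0.921), Plin1 (0.905), Pnpla2 (0.857), Ppargc1b (0.78), Adipoq (0.766) and Ppargc1a (0.63) retained similar values, whereas Elovl3 gave 0.113. The relation of Elovl3 with Ucp1 was thus smaller within groups than over all libraries. Centring does not remove age, because the 4 groups of 6 libraries mix day 30 and day 60 aortas. The part of age in these correlations was not tested. Without the 2 libraries farthest from the median of Ucp1, r was 0.877 for Cidea, 0.834 for Plin1, 0.773 for Pnpla2, 0.739 for Ppargc1b, 0.645 for Adipoq, 0.627 for Ppargc1a, 0.567 for Elovl3, -0.258 for Dio2 and -0.265 for Prdm16.

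**Figure D2:**
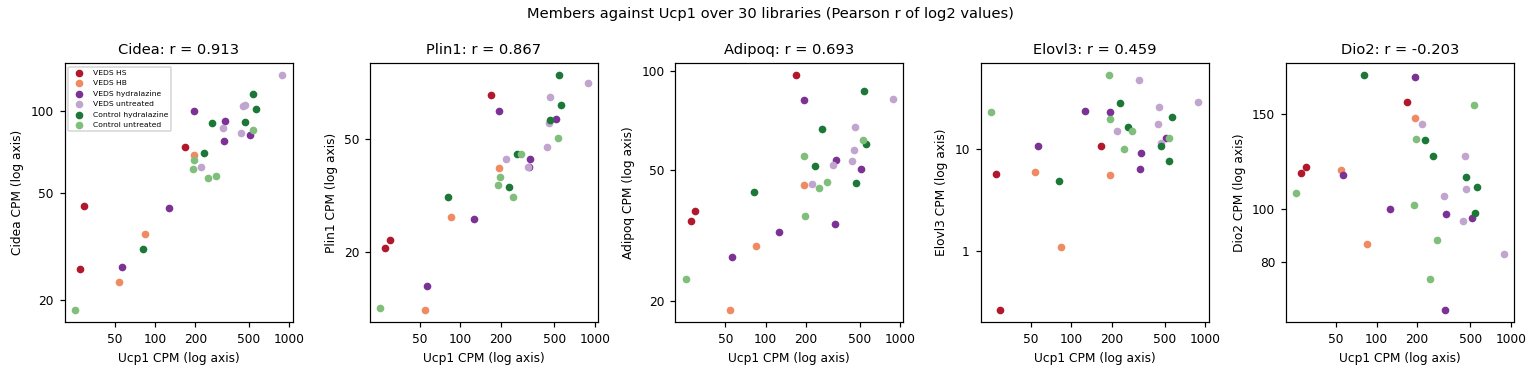
Each point is 1 of 30 libraries, coloured by group, with Ucp1 CPM on the x axis and another member's CPM on the y axis, both log axes. Cidea (r = 0.913) and Plin1 (0.867) climb with Ucp1, Adipoq (0.693) does so more loosely, and Dio2 (-0.203) does not.

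The 10 other genes most like Ucp1, among genes with a mean of at least 1 CPM, were led by Gpd1 (r = 0.981), the cytosolic glycerol-3-phosphate dehydrogenase, and the proton channel gene Otop1 (0.965). The rest were Idh3a (0.958), Prkar2b (0.955), Dlst (0.953), Slc16a1 (0.953), Atp5b (0.952), Thrsp (0.951), Acadvl (0.95) and Gpd2 (0.95). Idh3a and Dlst encode enzymes of the citric acid cycle, Atp5b a subunit of ATP synthase, Acadvl an enzyme of fatty acid oxidation, Slc16a1 a monocarboxylate transporter and Prkar2b a regulatory subunit of protein kinase A. Ranked among 13533 other genes, Cidea stood at 54, Plin1 at 127, Pnpla2 at 206, Ppargc1b at 285, Adipoq at 451 and Ppargc1a at 508, whereas Elovl3 stood at 1712, Dio2 at 8989 and Prdm16 at 9181. Among the genes most like Pnpla2 were the hormone-sensitive lipase gene Lipe (0.928), Acadl (0.919), Cs (0.901) and Cpt1b (0.9).

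The comparison of untreated VEDS with untreated control aortas addressed the genotype without any drug. Both groups hold aortas of day 30 or day 60 with no age given for a library, so the part of age was not tested. Pnpla2 ranged from 73.0 to 110.4 CPM in VEDS aortas (median 85.2) and from 37.5 to 71.4 CPM in controls (median 61.5), and these 2 groups did not overlap. Its log2 fold change was 0.59 ± 0.15 (SE), which did not pass the test (edgeR quasi-likelihood, Benjamini-Hochberg adjusted p = 0.9998, n = 6 each). Plin1 had a median of 51.7 CPM (39.8 to 78.7) in VEDS aortas and 35.4 CPM (12.7 to 50.3) in controls, and Cidea 96.0 CPM (62.4 to 136.5) in VEDS aortas and 59.6 CPM (18.4 to 85.3) in controls, with overlap for both.

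By edgeR, 0 of 10 members were called, against 0% of 12976 genes tested, and DESeq2 also called 0. At an unadjusted p of 0.05 or less stood 4 members, all with higher means in VEDS aortas, against 3.04% of all genes: Cidea (log2 fold change 0.74 ± 0.28), Ppargc1b (0.55 ± 0.22), Plin1 (0.68 ± 0.27) and Pnpla2. These 4 members vary together across libraries, so they are not 4 separate observations. The log2 fold change of Ucp1 was 0.91 ± 0.51 (0.62 to 1.3 with any 1 library left out). The median log2 fold change was 0.50 over the members, with 9 of 10 above 0, and 0.0034 over all genes. Among other thermogenic genes 11 of 12 and among other adipocyte genes 16 of 17 also had positive values, with 0 called in either list. Markers of other cells moved in both directions, with median log2 fold changes of -1.31 for cardiomyocyte and -0.40 for hepatocyte markers and 0.31 for macrophage markers, and their part in the result was not tested.

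With hydralazine in both genotypes the direction of most members was the opposite. Ucp1 had a log2 fold change of -0.47 ± 0.51 in hydralazine-treated VEDS against hydralazine-treated control aortas, and 9 of 10 members were below 0 (median -0.29). By edgeR 0 members were called against 0% of 12966 genes, and by DESeq2 0 (4 of 18673 genes). At an unadjusted p of 0.05 or less stood 2 members, both PGC-1 genes, against 4.64% of genes: Ppargc1a (-0.49 ± 0.21) and Ppargc1b (-0.42 ± 0.19). Without replicate 5 of the hydralazine-treated controls, Ppargc1b stood at -0.25 and Ucp1 at -0.30, and with any 1 library left out Ucp1 ranged from -0.80 to -0.26. The 5 cardiomyocyte markers tested had a median of -2.70 in this comparison, all 5 at an unadjusted p of 0.05 or less, and the 5 hepatocyte markers 0.80, and their part in the result was not tested. Over both treatments together Ucp1 stood at 0.22 ± 0.41 (0.05 to 0.36 with any 1 library left out, and 0.33 excluding the libraries that stood apart). In that comparison 0 members were called by edgeR (0% of 13235 genes) or DESeq2 (1 of 19253 genes), and 0 were at an unadjusted p of 0.05 or less (3.73% of genes).

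Hydralazine against no treatment gave lower means for all 10 members in VEDS aortas. Ppargc1b read 15.5, 19.4 and 26.2 CPM (lowest, median and highest) in hydralazine-treated VEDS aortas and 27.9, 32.7 and 43.0 CPM in untreated VEDS aortas, with no overlap. Its log2 fold change was -0.74 ± 0.15, rank 3 by p among all genes, with an adjusted p of 0.9998 in edgeR and 0.0329 in DESeq2. By edgeR 0 members were called (0% of 13006 genes), and by DESeq2 1, which was Ppargc1b, where 0.0107% of 18664 genes were called. This was also the 1 member at an unadjusted p of 0.05 or less, against 4.53% of genes. Ucp1 had a log2 fold change of -0.83 ± 0.45, and the median over members was -0.44.

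In control aortas the same drug went with higher means for 8 of 10 members. Ucp1 had a log2 fold change of 0.54 ± 0.56, with 0.37 when replicate 5 of the hydralazine-treated controls was left out, 0.31 without untreated control replicate 3 and 0.92 without untreated control replicate 5. Replicate 5 of the hydralazine-treated controls had the highest Ucp1 of its group (560.2 CPM) and the highest cardiomyocyte sum. The cardiomyocyte markers had a median of 1.69 and the hepatocyte markers -1.16 in this comparison, and their part in the result was not tested. By edgeR 0 members were called (0% of 12951 genes), by DESeq2 0 (3 of 18637 genes) and at an unadjusted p of 0.05 or less 0 (9.5% of genes). The difference between these 2 drug effects was tested as an interaction, for which edgeR called 0 members (0% of 13407 genes) and DESeq2 0. The interaction was at an unadjusted p of 0.05 or less for 6 members, against 3.28% of genes, all negative: Cidea (-0.99 ± 0.46), Ppargc1a (-0.93 ± 0.38), Ppargc1b (-0.98 ± 0.30), Adipoq (-0.77 ± 0.35), Plin1 (-1.06 ± 0.45) and Pnpla2 (-0.74 ± 0.32). For Ucp1 it was -1.39 ± 0.76, and -1.22 without replicate 5 of the hydralazine-treated controls. These 6 members vary together across libraries, so they are not 6 separate observations. The 5 hepatocyte markers had a median interaction of 1.34 and the 5 cardiomyocyte markers tested -1.83, and their part in the result was not tested.

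The combinations with an androgen or mineralocorticoid receptor antagonist went with the lowest mean Ucp1 levels of the 6 groups. Against untreated VEDS aortas Ucp1 had a log2 fold change of -2.07 ± 0.50 in HB (edgeR adjusted p = 0.0958, DESeq2 0.00508) and -2.63 ± 0.68 in HS (edgeR adjusted p = 0.171, DESeq2 0.00999). Excluding the 3 libraries that stood apart, the values were -2.74 in HB and -2.23 in HS. A call in HS appeared with 1 library left out: without VEDS HS replicate 1 the value was -4.02 with an edgeR adjusted p of 0.0475. That fit called 13 of 13483 genes.

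Elovl3 read 5.95, 5.49 and 1.11 CPM in HB aortas and 10.7, 5.65 and 0.266 CPM in HS aortas, against 11.2, 21.4 and 46.9 CPM (lowest, median and highest) in untreated VEDS aortas. No HB or HS value reached the lowest untreated one, and the share of all genes set apart in this way was not counted. The log2 fold change was -2.55 ± 0.59 in HB and -2.14 ± 0.75 in HS, and excluding the 3 libraries it was -2.81 and -1.55.

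Cidea read 23.5, 68.7 and 35.1 CPM in HB aortas and 73.8, 26.1 and 44.6 CPM in HS aortas, where untreated VEDS aortas ranged from 62.4 to 136.5 CPM, so 1 library of each group reached into that range. Its log2 fold change was -1.19 ± 0.33 in HB and -1.01 ± 0.32 in HS, and excluding the 3 libraries it was -1.72 and -0.94. Ppargc1b had a log2 fold change of -0.61 ± 0.19 in HB, or -0.84 excluding the 3 libraries. In HS it had -0.72 ± 0.28, which became -0.47 without HS replicate 3 (edgeR adjusted p = 0.828) and -1.22 without HS replicate 1.

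The general adipocyte genes had lower means in HB aortas. In HS aortas 2 of 3 libraries lay below the untreated VEDS range for each of the 3 genes, and replicate 1 carried the group mean. Adipoq read 18.7, 45.1 and 29.4 CPM in HB aortas and 97.2, 35.0 and 37.4 CPM in HS aortas, against 45.2 to 82.3 CPM (median 55.3) in untreated VEDS aortas. The 3 HB values lay below the untreated range, the highest by a narrow margin, while HS replicate 1 lay above it. Its log2 fold change was -0.94 ± 0.26 in HB and -0.08 ± 0.32 in HS. Plin1 read 20.7 and 22.0 CPM in HS replicates 2 and 3, against 39.8 CPM or more in untreated VEDS aortas, and Pnpla2 39.7 and 56.8 CPM against 73.0 CPM or more. For Plin1 the log2 fold changes were -1.10 ± 0.34 in HB and -0.56 ± 0.40 in HS, and for Pnpla2 -0.73 ± 0.17 and -0.49 ± 0.24. Excluding the 3 libraries, the values in HB were -1.31 for Adipoq, -1.51 for Plin1 and -0.96 for Pnpla2.

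In HB against untreated VEDS aortas edgeR called 0 of 10 members, where it called 0.409% of 13204 genes. DESeq2 called 6 (Ucp1, Cidea, Elovl3, Adipoq, Plin1 and Pnpla2), where it called 4.43% of 12675 genes. At an unadjusted p of 0.05 or less stood 8 members against 16.4% of genes, 7 with lower means and Prdm16 with a higher one (0.33 ± 0.10). Ucp1, Cidea, Ppargc1b, Adipoq, Plin1 and Pnpla2 vary together across libraries, so they are not separate observations. Without VEDS untreated replicate 1, edgeR called 3 members: Ucp1 (-2.21, adjusted p = 0.0334), Elovl3 (-2.66, 0.0401) and Pnpla2 (-0.77, 0.042). That fit called 529 of 13158 genes in all, against 54 in the main fit. The median log2 fold change was 3.65 for the 5 cardiomyocyte markers tested, -2.60 for the 5 hepatocyte markers and 0.25 for the 6 smooth muscle markers, and the part of these in the result was not tested.

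In HS against untreated VEDS aortas edgeR called 0 members, where it called 0.309% of 13276 genes, and DESeq2 called 2, Ucp1 and Cidea, where it called 1.94% of 14817 genes. At an unadjusted p of 0.05 or less stood 4 members, all with lower means (Ucp1, Cidea, Elovl3 and Ppargc1b), against 11.1% of genes. Of these, Ucp1, Cidea and Ppargc1b vary together across libraries and are not separate observations. The hepatocyte markers had a median log2 fold change of -2.28 in HS. The 4 cardiomyocyte markers tested had a median of -1.08, with 3 lower and 1 higher. The part of these markers in the result was not tested. Endothelial, fibroblast and mesothelial markers lay nearer to 0, with medians of -0.01, -0.26 and 0.12 in HB and 0.15, -0.27 and -0.32 in HS, and the 5 skeletal muscle markers summed to 22.8 CPM or less in any library. HB and HS were set against the same untreated VEDS libraries.

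**Figure D3:**
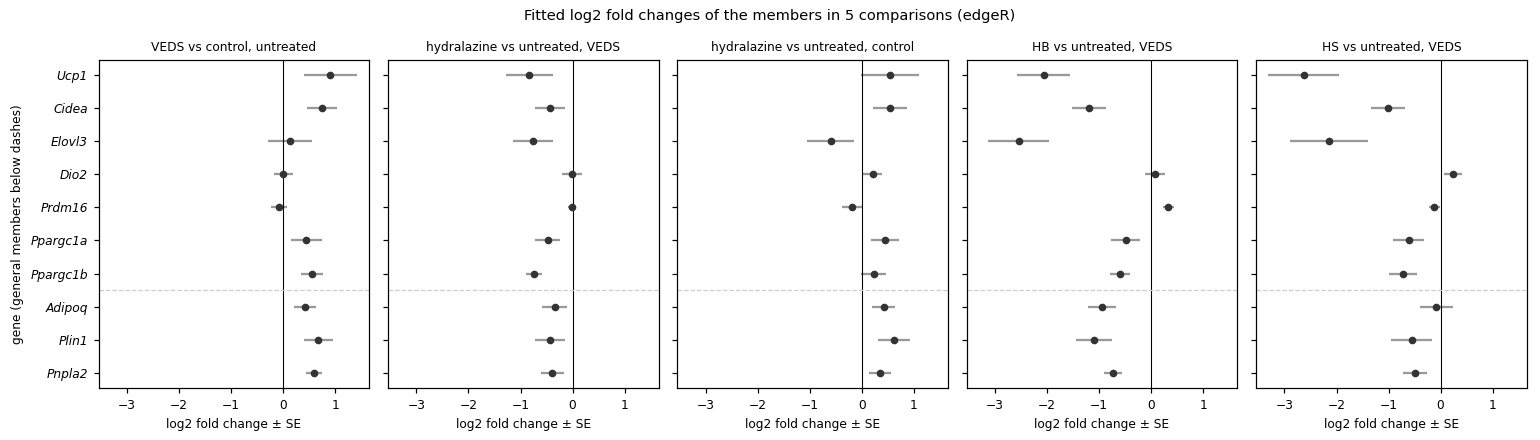
Points are edgeR log2 fold changes of the 10 members and bars are ± 1 SE, for 5 comparisons named above each panel, with general members below the dashed line. Ucp1 lies at 0.91 for VEDS against control without treatment, -0.83 for hydralazine in VEDS mice, 0.54 for hydralazine in controls, -2.07 for HB and -2.63 for HS.

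Ucp1 was also set against Adipoq within each library. The ratio of Ucp1 to Adipoq CPM within a library was 1.72, 0.788 and 0.794 in HS aortas and 2.90, 4.29 and 2.88 in HB aortas. In untreated VEDS aortas the ratio ranged from 4.86 to 10.8 with a median of 7.38. Neither combination overlapped the untreated VEDS range, and HS lay below HB in every library. Hydralazine-treated aortas spanned 2.08 to 10.2 in VEDS mice and 1.89 to 10.2 in controls, and untreated controls 1.08 to 8.65, so low ratios also occurred outside the combinations. The ratio was chosen after its values were seen and is given with no test.

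**Figure D4:**
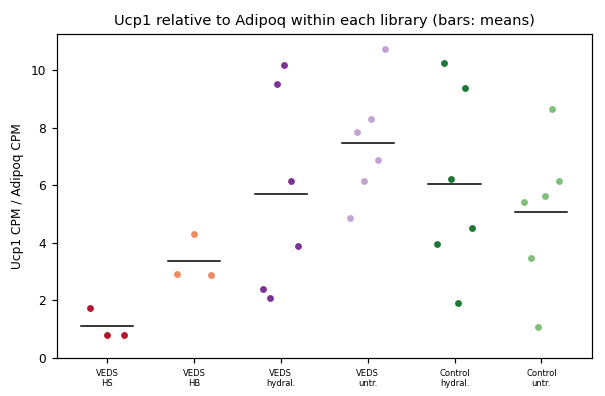
Each point is the ratio of Ucp1 CPM to Adipoq CPM in 1 library and each bar a group mean, on a linear axis from 0 (n = 3 for HS and HB, 6 otherwise). HS libraries lie between 0.788 and 1.72 and untreated VEDS libraries between 4.86 and 10.8.

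Hydralazine alone shared the background drug of both combinations. Against hydralazine-treated VEDS aortas, Ucp1 had a log2 fold change of -1.23 ± 0.63 in HB and -1.78 ± 0.77 in HS, and the ranges overlapped in both. In HB the value was -1.90 without HB replicate 2, and it ranged from -1.90 to -0.89 with any 1 library left out. In HS it ranged from -3.17 (without HS replicate 1) to -1.38. The 5 cardiomyocyte markers tested had a median of 3.71 in HB, and the 5 hepatocyte markers -2.79 in HB and -2.18 in HS. All 5 of each were at an unadjusted p of 0.05 or less. In HS the 4 cardiomyocyte markers tested had a median of -1.25, with 1 at an unadjusted p of 0.05 or less. The part of these markers in the result was not tested. In HB edgeR called 0 members (0.0151% of 13266 genes) and DESeq2 called 2, Elovl3 and Prdm16 (3.97% of 14451 genes). At an unadjusted p of 0.05 or less stood the same 2, against 15.5% of genes: Elovl3 (-1.80 ± 0.54) and Prdm16 (0.36 ± 0.08). In HS edgeR called 0 (0% of 13304 genes) and DESeq2 0 (52 of 14115 genes), with 1 member, Ucp1, at an unadjusted p of 0.05 or less against 13.6% of genes.

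Prdm16 read 112.6, 96.7 and 104.4 CPM in HB aortas and 74.5, 87.6 and 68.4 CPM in HS aortas. Hydralazine-treated VEDS aortas ranged from 75.3 to 90.0 CPM, so each HB value was above them and above every HS value. Its adjusted p in HB against hydralazine was 0.0945 in edgeR and 0.00555 in DESeq2. In HS against HB its log2 fold change was -0.44 ± 0.12 (edgeR adjusted p = 0.637). The smooth muscle markers, summed, stood at 24630 to 27250 CPM in HB aortas and 20800 to 22370 CPM in HS aortas, and the part of this in the Prdm16 values was not tested.

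In HS against HB aortas Ucp1 had a log2 fold change of -0.55 ± 0.73, and Adipoq 0.87 ± 0.45. By edgeR 0 members were called (0% of 12800 genes) and by DESeq2 0 (35 of 7499 genes), and 1 member, Prdm16, was at an unadjusted p of 0.05 or less (6.68% of genes). Excluding the libraries that stood apart, the Ucp1 difference had the opposite sign, at 0.50. Cardiomyocyte markers had a median log2 fold change of -4.04 in HS against HB, and their part in the result was not tested.

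Outside the 10 members, the lists of 12 other thermogenic and 17 other adipocyte genes held 1 of the 54 genes that edgeR called in HB against untreated VEDS aortas (0.409% of all genes) and 3 of the 41 that it called in HS (0.309%). In HB against untreated VEDS aortas Gpd1 fell by 1.91 on the log2 scale (edgeR adjusted p = 0.0444), to 104.4, 137.0 and 239.6 CPM in HB aortas against 420.0 to 936.7 CPM in untreated VEDS aortas. In HS aortas Gpd1 fell by 2.36 (0.044), the glucose transporter gene Slc2a4 by 1.13 (0.0311) and Letmd1, a mitochondrial gene needed for brown fat thermogenesis in mice, by 1.00 (0.044), all against untreated VEDS aortas by edgeR adjusted p. With any 1 library left out, Gpd1 was called in 1 of 9 fits in HB and 2 of 9 in HS, Slc2a4 in 4 of 9 and Letmd1 in 1 of 9. Excluding the 3 libraries that stood apart, none of these 4 calls remained: Gpd1 had a log2 fold change of -2.32 in HB (edgeR adjusted p = 0.062), and in HS Gpd1 had -2.12 (0.267), Slc2a4 -1.10 (0.181) and Letmd1 -0.97 (0.267). That step took only replicate 2 from HB and only replicate 3 from HS, so each group of 3 lost 1 library. Calls over all genes fell as well, from 54 to 2 in HB and from 41 to 1 in HS. In 1 fit of all 30 libraries Gpd1 in HB had -1.91 with an edgeR adjusted p of 0.0858.

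Of the 12 other thermogenic genes, 0 were called in HB and 1 in HS, and all 12 had negative fold changes in both, with medians of -0.88 in HB and -0.97 in HS. Of the 17 other adipocyte genes 16 were negative in HB (median -0.83, 1 called) and 15 in HS (median -0.68, 2 called). Fabp4, the fatty acid carrier of adipocytes, read 89.0, 117.5 and 267.1 CPM in HB aortas (lowest, median and highest) and 125.7, 167.5 and 332.9 CPM in HS aortas, against 293.3, 414.0 and 594.0 CPM in untreated VEDS aortas. White-enriched genes were scarce: the 5 summed to between 2.69 and 19.5 CPM in any library, with the leptin gene Lep at 3.89 CPM or less and Hoxc9 below 1 CPM throughout. Against untreated VEDS aortas 3 of them were tested in HB, all with negative values (median -0.65). In HS 3 were tested, all with positive values (median 0.48). In both, 0 were called and 0 were at an unadjusted p of 0.05 or less. Of the 4 beige markers 3 were tested in HB against untreated VEDS aortas, and all 3 had negative values (median -0.28). In HB 0 were called and 1 was at an unadjusted p of 0.05 or less, the amino acid transporter gene Slc36a2 (-1.09). In HS 3 of the 4 beige markers were tested, 2 with negative values and 1 with a positive one (median -0.32). In HS 0 were called and 0 were at an unadjusted p of 0.05 or less. Their summed level was 34.4 to 37.8 CPM in HB aortas and 23.1 to 63.0 CPM in HS aortas, against 41.3 to 83.6 CPM in untreated VEDS aortas. Tnfrsf9 was below 1 CPM throughout, and Tmem26 overlapped across groups with medians of 17.5 CPM in HB and 19.2 CPM in HS aortas, against 18.2 CPM in untreated VEDS aortas.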

How the data were processed

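Stranded total RNA libraries of descending thoracic aorta (adventitia stripped, perivascular fat removed) were sequenced on a NovaSeq6000; per the labels, CASAVA 1.8.4 and RSEM were used with mm39. The deposited files hold expected counts and TPM per gene; the authors made the TPM values with RSEM, and 97.6% of expected counts were whole within 1e-06. Counts were rounded for the tests. CPM values use TMM factors over all 30 libraries. A fit per comparison, on the libraries compared, was made with edgeR 4.0.16 under R 4.3.3 (default expression filter, quasi-likelihood test), Benjamini-Hochberg adjusted over all genes tested and called at 0.05 or less. DESeq2 1.42.0, other size factors and filters, 1 fit of all libraries, leaving out each library and excluding 3 libraries were the alternatives. The scripts were tested on simulated data. The study's pairwise EBSeq was not run.

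The members and lists were chosen with earlier results of these data known. Fold changes are named for members at an unadjusted p of 0.05 or less and always for Ucp1; other genes are the 10 most like Ucp1, the 5 most like Pnpla2, and called or abundant genes of the lists; 1 gene that this rule names is not reported here. Lists of endothelial, fibroblast, skeletal muscle and mesothelial markers were also summed. Library age and extraction batch are not labelled and entered no model. Aortas were separate samples of a group, with no pairing labelled, so p-values measure the spread between them. In the groups of mixed age that spread includes any difference of age, whereas HB and HS aortas were all of day 60. Promoters come from RefSeq.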

Additional observations from a re-analysis of the deposited data

Results flagged for a closer look

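Of 40 sets of 6 library values (10 members in 4 groups), 3 held a library far from the others of its group, where chance alone gives about 1 in 20. Ucp1 in VEDS untreated replicate 6 was 885.4 CPM, with the nearest library of that group at 464.2 CPM. Prdm16 in the same library was 102.2 CPM, with the nearest at 82.4 CPM. Elovl3 in Control untreated replicate 2 was 52.3 CPM, with the nearest at 22.5 CPM.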

How the results depend on the processing

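The number of members called by edgeR stayed at 0 in every comparison with other size factors, with no filter, with a stricter filter, with 1 fit of all 30 libraries and excluding the 3 libraries that stood apart. DESeq2 called 1 member for hydralazine against no treatment in VEDS, 6 for HB and 2 for HS against no treatment, and 2 for HB against hydralazine. Leaving out 1 library at a time, the members called ranged from 0 to 3 for HB against no treatment (3 without VEDS untreated replicate 1) and from 0 to 1 for HS against no treatment (1 without VEDS HS replicate 1). Those 2 fits called 529 of 13158 genes and 13 of 13483 genes. The Ucp1 difference between HS and HB changed sign, at 0.50 excluding the 3 libraries and at 0.11 without VEDS HB replicate 2 (range -1.95 to 0.11); the cause was not tested. Calls over all genes moved more: HB against no treatment gave 54 by edgeR, 561 by DESeq2, 2 excluding the 3 libraries, and 2 to 529 with 1 library left out. HS against no treatment gave 41, 288 and 1, 141 in the fit of all libraries, and 0 to 104 with 1 left out. HB against hydralazine gave 2, 574 and 1, and 1 to 56 with 1 left out. HS against hydralazine gave 0 by edgeR, 52 by DESeq2 and 2 in the fit of all libraries, and HS against HB 0, 35 and 0. VEDS against control gave 0 by edgeR and 4 by DESeq2 with hydralazine and 0 and 1 over both treatments, and hydralazine against no treatment gave 0 and 2 in VEDS and 0 and 3 in controls. No paired analysis was possible because no label pairs libraries across groups. Elovl3 and Ppargc1a had the smallest lowest counts of the members, at 2 and 40, and the part of depth in the precision of any member was not tested.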
